A study of Mus musculus with 6 samples.

Results

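The genes described here are 36 mouse genes of the hypoxia response and of glycolysis, listed by name and found through the RefSeq accession of their array probes among 14860 named genes that were tested. They fall into 3 genes of oxygen sensing, 2 glucose transporters, 16 glycolytic enzymes, 3 regulators of glycolytic flux and 12 other hypoxia targets. All 36 had at least 1 probe, 59 probes in all, and 34 passed the filter on dim probes. RNA came from cultured spermatogonial stem cells, from which sperm production is renewed, that were derived from dissociated testis cells and passaged onto mouse embryonic fibroblast feeders. The captopril group received 0.01 M captopril, an inhibitor of angiotensin-converting enzyme, for 24 h, and the water group received sterile water for 24 h, which the labels also give as 0.01 M. Each group has 3 single-colour Agilent arrays, numbered 2, 3 and 4, that the labels describe as independent. The labels name no strain, age or genotype, and separate animals are not stated, so that p-values measure the spread between these samples only. Feeder cells share the culture, and in such bulk RNA fewer cells of a type and less RNA per cell cannot be told apart.

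When oxygen is plentiful, the EGLN prolyl hydroxylases mark the transcription factor HIF1A, and the VHL ligase complex then targets it for degradation. When oxygen is scarce, HIF1A persists, pairs with ARNT and binds short sites with the core ACGTG or GCGTG near its target genes. Its targets include most enzymes of glycolysis, the pathway that turns glucose into pyruvate and lactate, and genes of blood vessel growth, pH control, collagen modification and mitophagy. Cultured spermatogonial stem cells are known to draw on glycolysis. HIF1A is governed largely through its protein, which these arrays do not measure.

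Promoters of 5 genes are shown because they stand for both outcomes below: Car9, Egln3 and Ankrd37 were lower with captopril on every array, while the enzymes Hk2 and Pgk1 overlapped between the groups. Each sequence is RefSeq's, on build GRCm38.p6, 5′ to 3′ on the gene's strand, over the 300 bases around the listed start, most of them upstream. The positions are chr4:43506776-43507075 (plus strand) for Car9, chr12:54203825-54204124 (minus) for Egln3, chr8:45999801-46000100 (minus) for Ankrd37, chr6:82774405-82774704 (minus) for Hk2 and chrX:106186850-106187149 (plus) for Pgk1. Capitals mark ACGTG or GCGTG on either strand.
Car9: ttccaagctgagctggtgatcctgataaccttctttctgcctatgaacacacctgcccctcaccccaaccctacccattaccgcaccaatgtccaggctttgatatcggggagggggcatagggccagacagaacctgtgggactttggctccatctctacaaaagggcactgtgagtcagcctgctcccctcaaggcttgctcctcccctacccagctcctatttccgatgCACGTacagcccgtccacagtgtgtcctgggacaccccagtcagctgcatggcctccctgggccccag
Egln3: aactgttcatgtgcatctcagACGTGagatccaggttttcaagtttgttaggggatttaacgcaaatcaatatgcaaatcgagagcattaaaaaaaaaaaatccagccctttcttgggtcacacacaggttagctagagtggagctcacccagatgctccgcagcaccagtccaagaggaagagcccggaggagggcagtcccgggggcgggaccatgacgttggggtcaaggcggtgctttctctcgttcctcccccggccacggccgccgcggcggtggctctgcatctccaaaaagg
Ankrd37: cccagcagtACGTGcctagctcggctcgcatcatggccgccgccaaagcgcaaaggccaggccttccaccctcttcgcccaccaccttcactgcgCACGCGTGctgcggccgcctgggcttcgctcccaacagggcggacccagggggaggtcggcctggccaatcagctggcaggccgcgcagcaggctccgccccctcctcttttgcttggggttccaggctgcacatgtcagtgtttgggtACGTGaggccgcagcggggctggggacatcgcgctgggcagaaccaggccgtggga
Hk2: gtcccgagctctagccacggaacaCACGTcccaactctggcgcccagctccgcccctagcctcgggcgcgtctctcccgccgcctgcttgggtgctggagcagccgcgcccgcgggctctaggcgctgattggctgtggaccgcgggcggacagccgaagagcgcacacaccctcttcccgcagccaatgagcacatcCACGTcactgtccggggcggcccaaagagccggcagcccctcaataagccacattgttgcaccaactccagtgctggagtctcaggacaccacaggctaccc
Pgk1: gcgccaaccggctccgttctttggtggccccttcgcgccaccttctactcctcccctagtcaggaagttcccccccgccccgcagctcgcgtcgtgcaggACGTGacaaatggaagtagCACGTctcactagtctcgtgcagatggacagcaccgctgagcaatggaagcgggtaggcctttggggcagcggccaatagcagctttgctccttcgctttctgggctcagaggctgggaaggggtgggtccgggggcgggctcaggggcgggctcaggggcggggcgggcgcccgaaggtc
Car9 and Egln3 each held 1 match to ACGTG and none to GCGTG. Ankrd37 held 2 matches to each, in 3 runs of capitals, while Hk2 and Pgk1 held 2 matches to ACGTG each. A palindrome that matches on both strands counts as 2, and both GCGTG matches of Ankrd37 come from such a palindrome, in the same run of capitals. The table lists promoters for 33 of the 36 genes, and of their 51 promoters 76.5% held a match to either motif, against 43.8% of all 32851 promoters of this length. A match was found in 74.1% of the 27 promoters of the glycolytic enzymes and in 6 of the 8 listed for the genes whose groups did not overlap. A match describes letters, not a bound site.

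Levels are log2 of the processed spot signal minus the 75th percentile of the array, and a fold change is the captopril mean minus the water mean. Between 52.2% and 60.5% of spots were well above background. Water replicate 3 stood apart: it correlated at 0.878 to 0.893 with the other arrays, which correlated at 0.970 or more with each other. Results are therefore given over 6 arrays and again over 5, without that array. All arrays share a slide and scan; slide row 1 holds water replicates 2 and 3, and slide row 2 holds water replicate 4 with every captopril array. limma called 0 of 14860 genes over 6 arrays at an adjusted p under 0.05 (1224 at an unadjusted p under 0.05, 8.24%) and 92 genes (0.619%) over 5 arrays, 30 lower (0.202%) and 62 higher (0.417%). With quantile normalization of the 5 arrays, or with no filter on dim probes, the 92 became 0. The number of arrays limits the precision, and a gene that was not called may still differ. All 20 undifferentiated spermatogonia markers and all 23 fibroblast markers listed were measured, and 19 and 23 of them were well above background on every array.

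Several hypoxia targets outside glycolysis had lower values on every captopril array than on any water array, whereas nearly all enzymes of glycolysis overlapped between the groups. None of the 34 genes passed the test over all genes in either comparison. The 4 with an unadjusted p under 0.05 over 6 arrays were Ndrg1, Pfkfb3, Car9 and Ankrd37, all lower. These are 4 of 34 genes, against 4.93% of all genes lower by that rule, and the count was 1 with any single captopril array left out. Over 5 arrays the 4 were Ndrg1, Egln3, Pfkfb3 and Car9, all lower, against 7.0% of all genes lower and 12.1% higher. The captopril arrays all lay below the water arrays in 7 of the 34 genes, against 11.4% of all genes tested, and all above in none, against 10.0% (either way, 21.5%). The 7 were these 4 with Vegfa, Egln3 and Tpi1, the last on its chosen probe only. Of the 34 values 25 were negative, against 53.3% of all genes, with a median log2 fold change of −0.18, where the median over all genes was −0.03. Over 5 arrays 19 were negative, against 41.5%, the median was −0.06, and the median over all genes was 0.07.

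**Figure D1:**
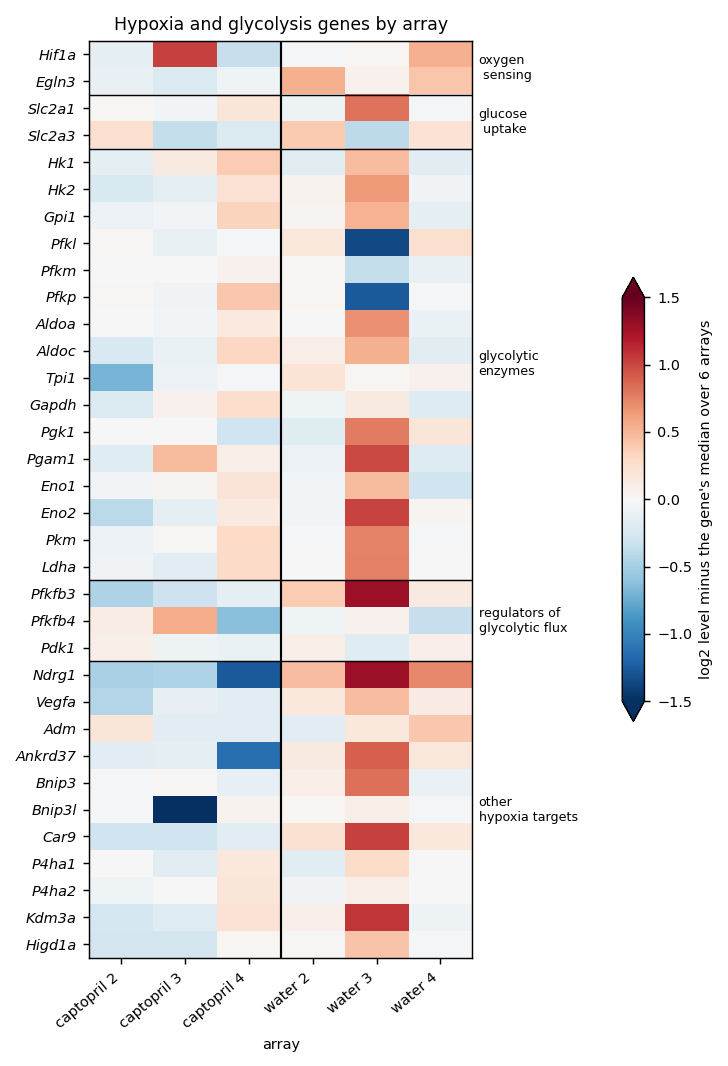
Log2 level of the 34 measured genes on each array, minus that gene's median over the 6 arrays, with captopril arrays left of water arrays and genes grouped by role; colours beyond 1.5 are capped. Water replicate 3 is high for most glycolytic enzymes and low for Pfkl and Pfkp, and Ndrg1, Car9, Ankrd37 and Pfkfb3 are low on all captopril arrays.

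Ndrg1 (NM_008681), a stress-responsive gene that HIF1A induces, differed most. Its log2 level was 0.86, 0.88 and 0.09 on captopril replicates 2, 3 and 4, against 1.81, 2.62 and 2.06 on water replicates 2, 3 and 4. The groups are well apart, with captopril replicate 4 lowest and water replicate 3 highest. The log2 fold change was −1.55 (SE 0.33, limma adjusted p = 0.455 over all genes), or 2.93-fold lower. It was −1.32 over 5 arrays (SE 0.27, adjusted p = 0.079) and −1.45 within slide row 2, where a single water array stands.

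Car9 (NM_139305) encodes a membrane carbonic anhydrase that handles the acid of glycolytic cells. It stood at −0.91, −0.92 and −0.78 with captopril, against −0.39, 0.41 and −0.46 in water. The captopril arrays lay within a narrow band below every water array, and water replicate 3 was the highest. Its log2 fold change was −0.72 (SE 0.29, limma adjusted p = 0.595), and −0.44 over 5 arrays (SE 0.14, adjusted p = 0.174).

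Ankrd37 (NM_001039562), an ankyrin repeat gene induced by HIF1A, stood at 1.75, 1.77 and 0.77 with captopril, against 2.03, 2.80 and 2.07 in water. Captopril replicate 4 was far below the other 2 captopril arrays, which were close to water replicates 2 and 4. The log2 fold change was −0.87 (SE 0.37, limma adjusted p = 0.604), and −0.62 over 5 arrays (SE 0.31, adjusted p = 0.322).

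Vegfa (NM_001025250), the growth factor that draws in blood vessels, stood at 1.07, 1.39 and 1.35 with captopril, against 1.67, 1.98 and 1.63 in water. The log2 fold change was −0.49 (SE 0.22, limma adjusted p = 0.616), and −0.38 over 5 arrays (SE 0.16, adjusted p = 0.262). A dimmer Vegfa probe also had every captopril array below every water array, at −1.49, −1.59 and −1.93 with captopril, against −1.26, −1.47 and −0.80 in water. The gap between the groups on that probe was small.

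On their chosen probes the remaining hypoxia targets overlapped between the groups. Their log2 fold changes over 6 arrays were −0.17 for Adm, a vasodilator peptide, −0.43 for Kdm3a, a histone demethylase, and −0.32 for Higd1a, a mitochondrial protein. Over 5 arrays they were −0.16, −0.08 and −0.17. The collagen prolyl hydroxylases P4ha1 and P4ha2 stood at −0.04 and 0.02, and over 5 arrays at 0.08 and 0.07. Bnip3 and Bnip3l, receptors of mitophagy, stood at −0.32 and −0.65. For Bnip3 the value over 5 arrays was −0.04 on the chosen probe. A dim Bnip3 probe read −3.95, −4.13 and −4.58 with captopril, against −3.08, −3.18 and −3.13 in water. On that probe the groups did not overlap, and the difference over 5 arrays was −1.11. The Bnip3l value rests on captopril replicate 3, which read 2.28 where the other captopril arrays read 4.11 and 4.20, and without that array it was −0.02. The other 3 Bnip3l probes gave differences of 0.03 to 0.06 between captopril and water replicates 2 and 4. Mxi1, a MYC antagonist, was well above background on 1 array, water replicate 2, and was not tested. Over the 11 measured targets the median was −0.43, with 10 negative values, and −0.17 over 5 arrays, with 9 negative values.

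**Figure D2:**
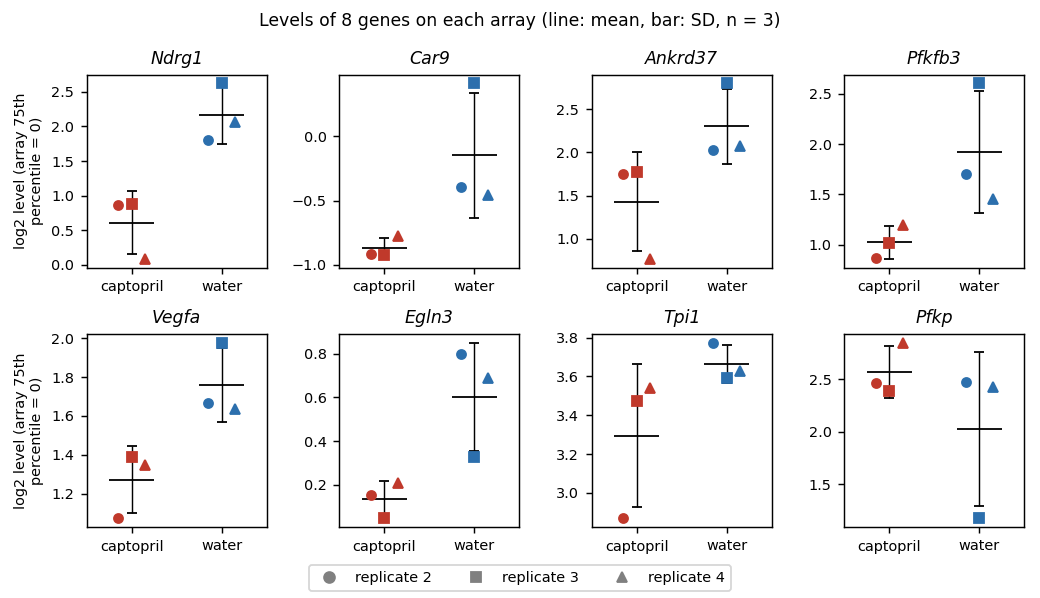
Log2 level of 8 genes on each array, captopril left of water, with the mean and SD of 3 arrays and a marker for each replicate number. All captopril points lie below all water points for 7 genes, and for Pfkp water replicate 3 alone lies far below the rest.

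In oxygen sensing, the groups were apart for Egln3 and overlapped for Hif1a. Egln3 (NM_028133), a prolyl hydroxylase that HIF1A itself induces, stood at 0.15, 0.05 and 0.21 with captopril, against 0.80, 0.33 and 0.69 in water. Here water replicate 3 was the lowest water array, and the difference was larger without it: −0.47 (SE 0.23, limma adjusted p = 0.618) over 6 arrays and −0.61 (SE 0.14, adjusted p = 0.099) over 5. The other Egln3 probe stood at −0.77, −0.96 and −1.09 with captopril, against −0.46, 0.41 and −0.11 in water, and the groups did not overlap there either. Hif1a read −0.46, 0.70 and −0.67 with captopril, against −0.36, −0.29 and 0.21 in water, which gave 0.00 (SE 0.40). The captopril arrays of Hif1a lay on both sides of the water arrays. Egln1, the main oxygen sensor of the family, was not well above background on any array and has no fold change here.

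Of the regulators of glycolytic flux, Pfkfb3 alone was separated between the groups. Pfkfb3 (NM_001177753) makes fructose 2,6-bisphosphate, the activator of phosphofructokinase, and stood at 0.86, 1.02 and 1.19 with captopril, against 1.70, 2.60 and 1.46 in water. Its log2 fold change was −0.90 (SE 0.33, limma adjusted p = 0.589), or 1.86-fold lower, and −0.55 over 5 arrays (SE 0.17, adjusted p = 0.163). Its relative Pfkfb4 read 0.31, 0.76 and −0.44 with captopril, against 0.13, 0.26 and −0.15 in water, with a log2 fold change of 0.13 (SE 0.34), and 0.22 over 5 arrays. Pdk1, a kinase that shuts pyruvate out of the mitochondrion, was at −0.02 (SE 0.21), and −0.11 over 5 arrays. Neither showed a gap between groups.

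The glucose transporters overlapped. Slc2a1 read 3.30, 3.24 and 3.46 with captopril, against 3.21, 4.09 and 3.26 in water, so that its value of −0.19 became 0.10 over 5 arrays. Slc2a3 read 1.74, 1.14 and 1.28 with captopril, against 1.89, 1.11 and 1.71 in water, with values of −0.18 and, over 5 arrays, −0.41 (SE 0.21, limma adjusted p = 0.328). The transporters thus took opposite signs over 5 arrays.

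**Figure D3:**
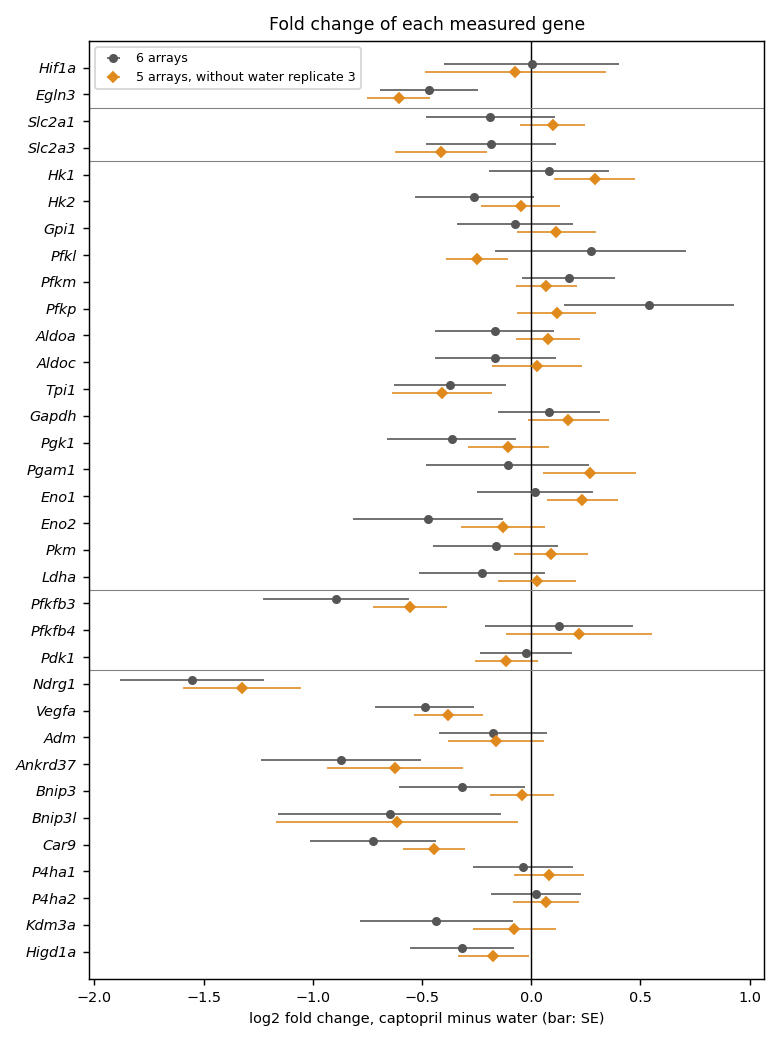
Log2 fold change, captopril minus water, of each of the 34 measured genes with its SE, over 6 arrays and over 5 arrays without water replicate 3, from oxygen sensing at the top to the other hypoxia targets at the bottom. Ndrg1 lies farthest to the left at −1.55 and −1.32, and 6 of the 16 glycolytic enzymes cross from left to right of 0 once that array is left out, while Pfkl crosses the other way.

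All 16 glycolytic enzymes were well above background on all 6 arrays, and none passed the test over all genes. Over 6 arrays their median log2 fold change was −0.14, with 10 negative values, and over 5 arrays it was 0.07, with 5 negative values, the same as the median over all genes. The lowest adjusted p among them by limma was 0.644 over 6 arrays and 0.370 over 5. Relative to each gene's median over 6 arrays, the median enzyme stood at −0.09, −0.04 and 0.21 on captopril replicates 2, 3 and 4, against 0.00, 0.53 and −0.08 on water replicates 2, 3 and 4. Water replicate 3 was the highest. It was also the highest by this measure over all genes tested, at 0.36, against −0.07 to 0.09 on the other arrays. Without it the enzyme median was still negative with quantile normalization (−0.11, where all genes had 0.00) and with array median scaling (−0.06, where all genes had −0.06), so its sign depends on the scaling too. For the 11 other hypoxia targets the same measure was −0.15, −0.16 and −0.12 with captopril, against 0.08, 0.47 and 0.01 in water, where the groups did not overlap. The enzymes stood above the other targets by 0.06, 0.11 and 0.33 on the captopril arrays, against −0.07, 0.06 and −0.08 on the water arrays. Captopril replicate 2 and water replicate 3 were level on this difference, which was not tested, since the genes were chosen with results known.

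From the top of the pathway, the hexokinases Hk1 and Hk2, which trap glucose as its phosphate, stood at 0.08 and −0.26 over 6 arrays and at 0.29 and −0.05 over 5. Over 5 arrays Hk1 was the single gene of the 34 whose captopril arrays all lay above the water arrays, by a narrow gap, against 27.2% of all genes, and 8 had all captopril arrays below, against 15.7% (either way, 42.9%). Gpi1, the isomerase, stood at −0.07 and 0.12. On their chosen probes the phosphofructokinases, the main control point, were all positive over 6 arrays, with 0.27 for Pfkl, 0.17 for Pfkm and 0.54 for Pfkp. Pfkp read 2.46, 2.39 and 2.85 with captopril, against 2.47, 1.18 and 2.42 in water, so that its value rests on water replicate 3 and was 0.12 over 5 arrays. The other Pfkp probe went the other way, with 1.18, 0.46 and 0.55 with captopril, against 1.24, 2.16 and 1.28 in water. On that probe the groups did not overlap, and the difference over 5 arrays was −0.53. Pfkl read −1.21 on water replicate 3 and 0.32 and 0.39 on the other water arrays, and its value turned to −0.25 over 5 arrays. Its captopril arrays, at 0.16, 0.03 and 0.13, all lay below those other water arrays. Over 5 arrays 2 of the 16 enzymes, Pfkl and Tpi1, were thus apart and lower on their chosen probes, and 1, Hk1, was higher.

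In the later steps of the pathway, the aldolases Aldoa and Aldoc stood at −0.17 and −0.16 over 6 arrays and at 0.08 and 0.03 over 5. Tpi1 (NM_009415), triosephosphate isomerase, read 2.87, 3.47 and 3.54 with captopril, against 3.77, 3.59 and 3.63 in water. Its groups did not overlap, but captopril replicates 3 and 4 came close to water replicate 3, and its value of −0.37 (SE 0.26) was not past the test (limma adjusted p = 0.644). The other Tpi1 probe was brighter on every array but water replicate 3, where it read −0.78, so it was not chosen. On it the groups overlapped, at 3.83, 3.85 and 4.12 with captopril, against 4.08 and 3.85 on water replicates 2 and 4. That probe gave −0.03 over 5 arrays. Pgk1, the first enzyme to yield ATP, stood at −0.36 and, over 5 arrays, −0.10. Pgam1 stood at −0.11 and 0.27, Eno1 at 0.02 and 0.23, and the neuronal enolase Eno2 at −0.47 and −0.13. Pkm, pyruvate kinase, stood at −0.16 and 0.09, and Ldha, which makes lactate, at −0.23 and 0.03. The signs of Gpi1, Aldoa, Aldoc, Pgam1, Pkm and Ldha turned from negative to positive without water replicate 3, with levels scaled to the 75th percentile.

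Gapdh, whose RNA is often used as a reference, overlapped between the groups on its chosen probe. That probe read 4.94, 5.23 and 5.43 with captopril, against 5.09, 5.30 and 4.96 in water (log2 fold change 0.08, SE 0.23). The 7 Gapdh probes did not agree on water replicate 3. Set against the mean of water replicates 2 and 4, their difference there ran from −7.12 to 0.46, and 4 of the 7 were more than 2 lower on the log2 scale. On the other 5 arrays they gave captopril minus water differences between −0.10 and 0.23. The same difference was −5.19 on a probe of Ldha and 0.75 on another. It was −4.75 and −0.11 on the probes of Tpi1, and −5.19 and 0.63 on those of Hk1. Of 55 probes of the listed genes that were well above background on the other 5 arrays, 8 were more than 2 lower on water replicate 3, beside 2103 of 18310 named probes. All 8 belong to Gapdh, Ldha, Tpi1 and Hk1. No probe of the listed genes was that far below the other arrays of its group on a captopril array, and of all named probes at most 0.0928% were. The probes' places along their transcripts and the cause were not tested. Cross-hybridisation with Gapdh, Pgam1, Eno1 or Ldha pseudogenes cannot be told apart from the genes on these arrays.

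**Figure D4:**
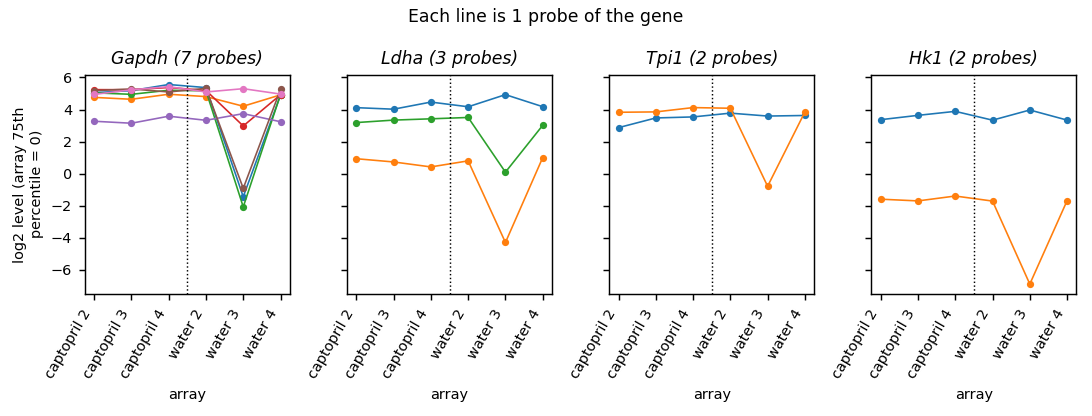
Log2 level of every probe well above background on the 5 arrays other than water replicate 3, for Gapdh, Ldha, Tpi1 and Hk1, with captopril arrays left of the dotted line and water arrays right of it; each line is 1 probe. On water replicate 3 some probes lie far below their other arrays, by −7.12 at most, while other probes of the same gene stay level.

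Further genes of the pathway were taken from lists made with earlier results known. Of 33 measured hypoxia targets beyond the 36 genes, 5 had an unadjusted p under 0.05 and were lower over 6 arrays, and none were higher, against 4.93% and 3.31% of all genes. None passed over all genes. Their median was −0.35, and −0.23 over 5 arrays. The groups were apart in 11 genes lower and 1 higher, against 11.4% and 10.0% of all genes, and over 5 arrays in 13 lower and 5 higher, against 15.7% and 27.2%. Over 5 arrays 5 were lower and 1 higher at an unadjusted p under 0.05, against 7.0% and 12.1% of all genes. The higher gene was Angptl4, a secreted inhibitor of lipoprotein lipase, at 0.42 (0.17 over 6 arrays), and Rora, a nuclear receptor, was apart and higher in both comparisons (0.33 and 0.30); these 2 are named for their values. Car12, a carbonic anhydrase like Car9, read 0.07, −0.03 and −0.41 with captopril, against 0.75, 1.71 and 0.97 in water, which gave −1.26 (SE 0.31, limma adjusted p = 0.494), and −0.98 over 5 arrays (adjusted p = 0.076). Stc2, a secreted glycoprotein, read −1.11, −1.18 and −1.57 with captopril, against −0.41, −0.53 and −0.44 in water, and here water replicate 3 was in step with its group (−0.83, SE 0.22, adjusted p = 0.517). Ddit4, an inhibitor of mTORC1, and Igfbp3, which binds insulin-like growth factors, are named because of their values, at −0.70 and −0.76, and over 5 arrays −0.61 and −0.96 (adjusted p = 0.094 and 0.056). Car12, Stc2, Ddit4 and Igfbp3 had every captopril array below every water array.

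Among the genes that govern HIF no call was made. Of 16 measured components none had an unadjusted p under 0.05 over 6 arrays, and the median was −0.07, and 0.06 over 5 arrays. Cul2, the scaffold of the VHL ligase, had the smallest p at −1.09 (SE 0.47), and Vhl followed at −0.92 (SE 0.46, limma adjusted p = 0.618), with −0.72 and −0.49 over 5 arrays. Arnt, Epas1 and Egln2 stood at 0.09, −0.15 and 0.04, and over 5 arrays at 0.35, 0.09 and 0.24, where Arnt and Epas1 were apart and higher. The groups were apart over 5 arrays in 4 components higher and 1 lower, against 27.2% and 15.7% of all genes. The lower one was Cul2, which was apart and lower over 6 arrays too. At an unadjusted p under 0.05 over 5 arrays, 12.1% of all genes were higher and 7.0% lower. By that rule 2 of the 16 components were higher and none were lower. They were Cited2, which competes with HIF1A for its coactivator, and the chaperone Hsp90aa1, at 0.34 and 0.52 (0.17 and 0.15 over 6 arrays), both named for their values.

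Other isozymes gave no call either. Among 18 measured glucose transporters and isozymes beyond the 36 genes the median was 0.06 (0.11 over 5 arrays). At an unadjusted p under 0.05, 3.31% of all genes were higher and 4.93% lower. By that rule 1 of the 18 was higher and none were lower. It was the muscle mutase Pgam2 (0.61, SE 0.25, limma adjusted p = 0.595). Adpgk, an ADP-dependent glucokinase, stood at −0.95 (SE 0.43). Over 5 arrays Pgam2 was at 0.44 and Adpgk at −0.75. Of 7 listed enzymes of male germ cells 3 were measured: Ldhc at 0.35 (SE 0.24), Ldhal6b at −0.26 and Eno4 at 0.08. Over 5 arrays these were 0.18, −0.12 and −0.02.

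Where pyruvate meets the mitochondrion, a single gene passed the test over 5 arrays, against 0.619% of all genes. Pdk4, a pyruvate dehydrogenase kinase that nuclear receptors and FOXO factors induce, read 0.84, 1.14 and 1.26 with captopril, against −0.20, 0.89 and −0.26 in water. Water replicate 3 lay among the captopril arrays. The log2 fold change was 0.94 (SE 0.35, limma adjusted p = 0.589) over 6 arrays and 1.31 (SE 0.17, adjusted p = 0.043) over 5. Leaving out 1 further array gave 1.22 to 1.43, with an adjusted p of 0.040 to 0.402, and with quantile normalization of the 5 arrays it was 0.057. Pdk3 and Dlat, the acetyltransferase of the pyruvate dehydrogenase complex, were lower at −1.06 (SE 0.39) and −0.90 (SE 0.29), and over 5 arrays at −0.62 each, neither past the test. Over the 15 measured genes of this list the median was −0.26, and 0.00 over 5 arrays. The groups were apart in 5 genes lower and none higher, against 11.4% and 10.0% of all genes. Over 5 arrays they were apart in 6 lower and 2 higher, against 15.7% and 27.2%. At an unadjusted p under 0.05, 2 were lower and 1 higher over 6 arrays, against 4.93% and 3.31% of all genes. By that rule 2 were lower and 2 higher over 5 arrays, against 7.0% and 12.1%.

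**Figure D5:**
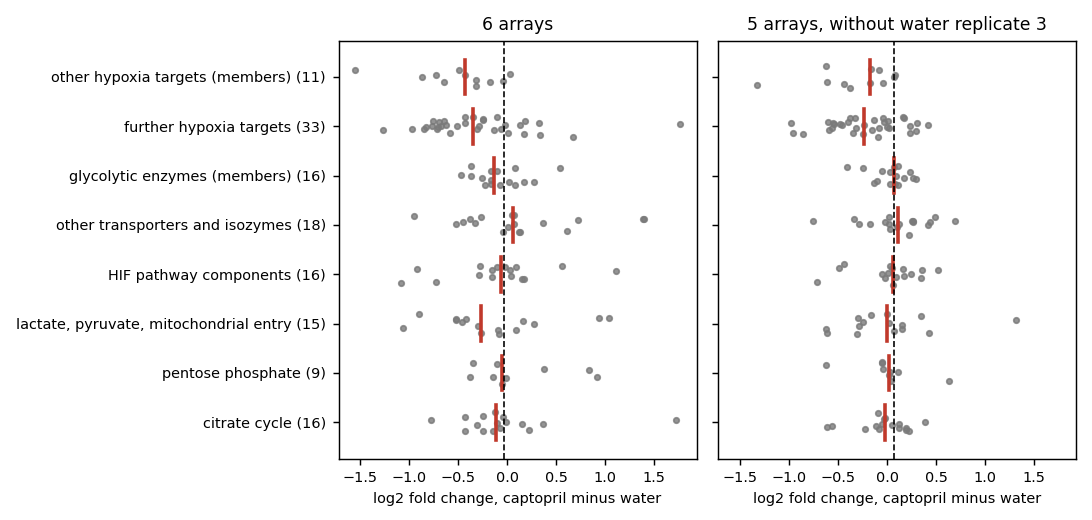
Log2 fold change, captopril minus water, of every measured gene of 8 lists (grey points, number of genes in brackets) with the list median (red) and the median of all 14860 genes (dashed), over 6 arrays (left) and 5 arrays (right). The medians of both hypoxia target lists lie left of the dashed line in both panels, at −0.43 and −0.35 over 6 arrays, while that of the glycolytic enzymes lies on it over 5 arrays.

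Some markers of the fibroblast feeders had lower values on the captopril arrays. Of the 23 markers 18 were negative over 6 arrays, against 53.3% of all genes, and 12 over 5 arrays, against 41.5%. At an unadjusted p under 0.05 by limma, 5 were lower and 1 higher over 6 arrays, against 4.93% and 3.31% of all genes. By that rule 6 were lower and 1 higher over 5 arrays, against 7.0% and 12.1%. The groups were apart in 7 markers lower and 1 higher, against 11.4% and 10.0% of all genes. Over 5 arrays they were apart in 8 lower and 6 higher, against 15.7% and 27.2%. Their mean log2 level was 2.44 to 2.56 on captopril arrays, against 2.65 to 3.26 on water arrays. Without water replicate 3 the water arrays stood at 2.66 and 2.65. Col3a1, a fibrillar collagen, stood at −0.87 (SE 0.25, limma adjusted p = 0.526), and Pdgfrb, a growth factor receptor, at −1.08 (SE 0.37). Over 5 arrays they stood at −0.66 and −0.72. All 23 markers were well above background on every array. The mean over the 11 other hypoxia targets was 1.37 to 1.53 on captopril arrays, against 1.77 to 2.30 on water arrays. Over the 20 undifferentiated spermatogonia markers the median was −0.02, and 0.01 over 5 arrays. Sall4 and Nanos2 had the smallest p among them, at 0.89 and −0.51, and over 5 arrays 0.51 and −0.33. Of 10 Sertoli and Leydig markers 5 were measured, with a median of −0.28 that was −0.02 over 5 arrays, led by Star (−0.61 and, over 5 arrays, −0.24) and Wt1 (−0.60 and −0.21). Of 9 endothelial and blood markers 5 were measured, with a median of 0.27 that turned to −0.32 over 5 arrays, led by Ptprc (1.21 and 0.70) and Adgre1 (−0.57 and −0.32). The part of the feeder cells in the lower hypoxia targets was not tested. Within slide row 2, which leaves water replicate 4 against 3 captopril arrays, the median was −0.36 for the other hypoxia targets and 0.13 for the enzymes, where the median over all genes was 0.11.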

How the data were processed

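Per the file headers, the deposited intensity columns come from Agilent Feature Extraction 11.5.1.1 (10.7 per the submitters' processing notes), whose processed signal is background-subtracted. The authors also deposited a table of log2 values, and no source read for this work says how it was made; the values differed from log2 of the processed signal by a constant per array, near its 75th percentile (column medians −4.25 to −3.63), and served as an alternative. The processed signal was taken to log2 and scaled to the 75th percentile of each array. Control and outlier spots were left out, spots of 1 probe were averaged, and 26762 of 55681 probes were named through the RefSeq table of GRCm38.p6. Each gene was read from its brightest probe that was well above background on 3 or more arrays. The captopril and water arrays were set against each other with limma 3.58.1 (R 4.3.3) and Benjamini-Hochberg adjustment over 14860 genes. The code was tested on simulated data. Replicate numbers did not pair the arrays: same-numbered deviations correlated at −0.02, 0.02 and −0.19. Members and lists were chosen with earlier results of these data known. Genes named beyond the members were the 2 with the smallest p of each list, any past the adjusted threshold (Pdk4), a few HIF pathway and germ cell genes listed by name, and those said to be named for their values. The filter left 2 of the 36 members untested. Alternatives covered background, scaling, filters, probe choice, blocks, slide row and each array left out.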

Additional observations from a re-analysis of the deposited data

How the results depend on the processing

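No listed gene passed over all genes under any of the 23 alternatives. The count of all genes called was 0 to 92 with each array left out in turn. Without water replicate 3 it was 39 with median scaling, 137 with the mean of all probes, 0 with quantile normalization or no filter on dim probes, and 91 with the brightest probe chosen without that array, a choice made after seeing the data. The number of listed genes at an unadjusted p under 0.05 was 4, and 1 to 4 with an array left out. It was 7 with the mean of all probes, 1 with the slide row as a block, 2 in slide row 2 alone, and 8 without water replicate 3 with median scaling. The median of the listed genes ranged from −0.32 to −0.06 with an array left out, and that of the enzymes from −0.30 to 0.07. Scaling by array medians moved the median of all genes to −0.33, and put the listed genes at −0.48, the enzymes at −0.44 and the other hypoxia targets at −0.73, or −0.15, −0.10 and −0.40 relative to it. The enzymes stood at 0.13 with the slide row as a block and in slide row 2 alone. Both settings give the same fold changes, since slide row 1 holds water arrays only. The other hypoxia targets were negative throughout, at −0.55 to −0.17 with an array left out. Without water replicate 3 they stood at −0.167 with no filter on dim probes and at −0.173 with the mean of all probes and with the brightest probe chosen without that array. Of the 8 genes followed singly, Ndrg1, Car9, Ankrd37, Pfkfb3, Vegfa and Egln3 kept their sign under all alternatives. The 8 were picked for groups that did not overlap or for a small p. Where the groups do not overlap, leaving out arrays or adding a block cannot turn the sign. Those alternatives therefore say nothing about the sign of these 6 genes. Tpi1 turned to 0.59 with the mean of all probes and to 1.55 with the brightest probe chosen without water replicate 3. Pfkp turned to −0.14 with the mean of all probes, and without water replicate 3 to −0.016 with median scaling and to −0.21 with the mean of all probes. With the replicate number as a block 0 genes were called and 3 listed genes had an unadjusted p under 0.05; the numbers did not pair the arrays. The cause of these shifts was not tested.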

Other observations

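The neighbouring pathways of glucose use gave no call over all genes. Of 9 pentose phosphate genes none had an unadjusted p under 0.05 over 6 arrays, and the median log2 fold change was −0.06, and 0.02 over 5 arrays. H6pd, the hexose phosphate dehydrogenase of the endoplasmic reticulum, read 2.01, 2.02 and 2.05 with captopril, against 1.41, 2.16 and 1.38 in water, so that water replicate 3 alone lay above the captopril arrays. Its value was 0.38 (SE 0.27), and 0.63 over 5 arrays (SE 0.14, limma adjusted p = 0.084). Pgls, which follows in that pathway, stood at 0.92 (SE 0.70), and at 0.02 over 5 arrays.

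Of 16 citrate cycle genes none had an unadjusted p under 0.05 over 6 arrays, and the medians were −0.11 and −0.02. Ogdh, a subunit of oxoglutarate dehydrogenase, read 3.81, 3.79 and 4.09 with captopril, against 3.56, 3.57 and 3.45 in water, and the groups did not overlap (0.37, SE 0.21, limma adjusted p = 0.631). Idh3g, a subunit of isocitrate dehydrogenase, stood at −0.43 (SE 0.26). Over 5 arrays Ogdh was at 0.39 and Idh3g at −0.22. In each of these pathways 1 gene was lower and 1 higher at an unadjusted p under 0.05 over 5 arrays, against 7.0% and 12.1% of all genes.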
